A study of Mus musculus with 20 samples.

Results

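The effect of *Eed* loss common to the fetal stomach and intestine was measured in all 8 embryonic RNA-seq libraries of the series, out of 20 samples in all. These were 4 libraries of *Eed* KO mesenchyme and 4 of control mesenchyme, and organ was a covariate, so that each fold change is the genotype effect averaged over both organs. Control embryos were Bapx1-cre;Rosa26mTmG and *Eed* KO embryos were Eedfl/fl;Bapx1-cre;Rosa26mTmG, each with 2 intestine and 2 stomach libraries. All were E13.5 embryos, and only GFP+ cells sorted by FACS were sequenced. *Bapx1*-Cre acts in mesenchyme of the developing gut, and in the mTmG reporter every cell in which Cre was active, and its descendants, carries membrane GFP. The sort therefore selects cells with Cre activity, and does not show that both copies of *Eed* were deleted in each of them. Control embryos carried Cre and the reporter but no floxed *Eed*. The strain label was C57BL/6 for all samples, while the study's methods give mixed backgrounds for the floxed *Eed* line and for the reporter line (C57BL/6J and CD-1), so differences in background cannot be told apart from the genotype. Which libraries of different organs came from the same embryos was not given, so p-values measure the spread between these libraries.

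EED is a core subunit of Polycomb repressive complex 2 (PRC2), the complex that methylates histone H3 at lysine 27. EED binds the methylated histone tail and stimulates the catalytic subunit EZH2 or EZH1, and without EED the complex does not maintain the mark. H3K27me3 is found at the promoters of many developmental regulators in cell types that do not use them, typically at promoters rich in CpG dinucleotides, and many of these promoters also carry the active mark H3K4me3, a state called bivalent. The Hox genes are the best known targets, because their silencing outside the proper segment of the body axis depends on Polycomb proteins. In the fetal gut, the mesenchyme forms the smooth muscle, fibroblasts and serosal layer and sends signals to the epithelium that differ between stomach and intestine.

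The libraries held between 30236159 and 39606157 gene counts each, and 16218 of the 43280 listed genes passed the filter on low counts. A count of 0 allowed a level of up to 0.0757 to 0.0992 CPM (counts scaled to a fixed library total, after TMM) in the single libraries, a limit that covers counting error only. The defining mesenchymal genes were abundant, with a summed level of 13844 to 25545 CPM for the 12 listed, while the 12 leukocyte markers listed in the counts summed to 6.60 to 14.5 CPM. *Xist* was at 0.0792 and 0.0537 CPM in *Eed* KO replicate 1 of the intestine and stomach, and between 36.6 and 126 CPM in the other 6 libraries, so the sex of the embryos was not balanced between the libraries. Spike-in RNA made up 0.0134% to 0.0403% of the counts in the *Eed* KO libraries and 0.0720% to 0.110% in the controls, which did not overlap.

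*Eed* itself was the first check of the labels. It was at 38.1 and 40.1 CPM in the control intestine, 40.1 and 41.5 CPM in the control stomach, 10.7 and 8.59 CPM in the *Eed* KO intestine and 11.5 and 7.40 CPM in the *Eed* KO stomach. The genotypes did not overlap in either organ, and *Eed* fell by 2.06 ± 0.14 on the log2 scale (SE, edgeR quasi-likelihood test, adjusted p = 9.1e-05). Counts were taken over the whole gene (chr7:89954656-89980983), so that transcripts of exons outside the deleted part and of cells without deletion were not separated. The other 10 PRC2 genes did not pass the thresholds. *Ezh2*, which encodes the main catalytic subunit in dividing cells, had a log2 fold change of −0.18 ± 0.06 (edgeR adjusted p = 0.12), and *Suz12*, the scaffold subunit, had one of −0.14 ± 0.05 (edgeR adjusted p = 0.15). Among 19 genes of the partner complex PRC1, 1 rose (5.26%, near the 5.83% of all genes tested). This was *Bmi1*, a PCGF subunit known as a repressor of *Cdkn2a*, which was at 101, 97.9, 123 and 120 CPM in control and at 268, 236, 304 and 252 CPM in *Eed* KO libraries, a log2 fold change of 1.27 ± 0.08 (edgeR adjusted p = 7.6e-05).

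Genes gained expression far more often than they lost it after *Eed* loss. A gene was called raised or lowered where the log2 fold change was above 1 in size and the adjusted p was under 0.05. By this rule 946 genes rose, 5.83% of the genes tested, and 114 fell, 0.703%. The median log2 fold change was 1.85 among raised and −1.60 among lowered genes, against 0.00 over all genes tested, and 203 raised genes had one above 3. For 29 raised and 2 lowered genes the lower genotype had no count in any library, and with these at their bound against 3 counts both medians stayed as given. Without the fold threshold, 1414 genes were higher (8.72%) and 465 were lower (2.87%). In single libraries, the raised genes summed to 1788, 1902, 2466 and 2578 CPM in controls and to 4780, 5899, 7592 and 9104 CPM in *Eed* KO mesenchyme, which is under 1% of all counts throughout. The lowered genes summed to 762, 830, 1076 and 1057 CPM in controls and to 336, 330, 367 and 348 CPM in *Eed* KO libraries. All 4 *Eed* KO libraries were above all 4 controls for 693 raised genes (8.15% of all genes tested did so), and they were below for 90 lowered genes (4.91% of all tested). Within each organ by itself, both *Eed* KO libraries were above both controls for 926 raised genes (14.3% of all tested) and below them for 111 lowered genes (9.94% of all tested). The genes were called from the same libraries, so their separation is a description alone.

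These counts depended on how the libraries were scaled and on the embryos taken as independent. With 1 factor estimated from the spike-ins (RUVg), which had a correlation of 0.872 with genotype over the 8 libraries, edgeR called 198 raised and 74 lowered genes, of which 166 and 18 were shared, and direct scaling to the spike-in totals shifted the median gene upward by 2.12 (log2), so that 15962 genes rose and 25 fell. With same-numbered intestine and stomach libraries of a genotype treated as 1 embryo pool, limma voom called 535 raised and 60 lowered genes, of which 528 and 55 were shared. Of the 116 called genes under the rule for named genes, 86 stayed past the thresholds in limma voom with embryo pools and 48 in edgeR with the spike-in factor. *Cdkn2a*, *Zic1*, *Hoxb13*, *Tbx15*, *Wdfy1*, *Hoxa4*, *Hoxa5* and *Bmi1* passed in both, while *Gata4*, *Ccnd1*, *Wnt11*, *Sfrp2* and *Tap1* lost their calls with the spike-in factor (log2 fold changes of 2.34, 1.27, 1.36, 0.56 and 0.99). With embryo pools in limma voom the calls of *Hoxb1*, *Lef1*, *Lefty2*, *Gdf7*, *Shh*, *Edn1*, *Frzb*, *Dkk1*, *Cdh1*, *Erbb3*, *Acan*, *Col2a1*, *Col7a1*, *Rsad2* and *Alas2* were lost, beside those given with their lists. All changes are given relative to the median gene, and whether the total RNA per cell differed was not tested.

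**Figure D1:**
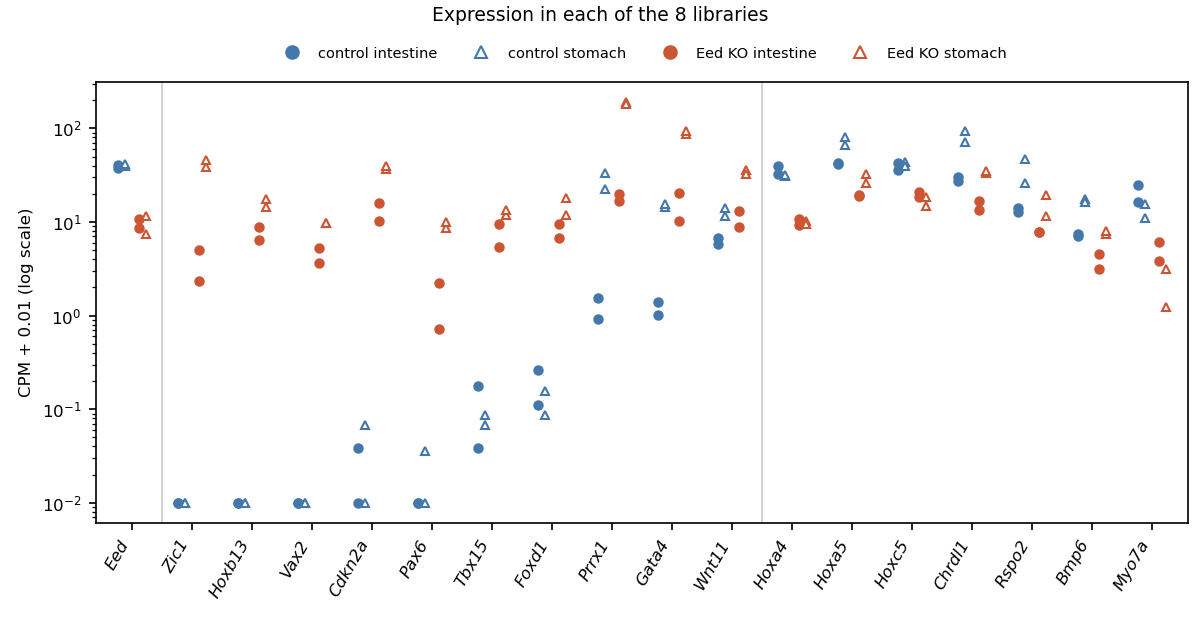
Expression in each of the 8 libraries, as CPM plus 0.01 on a log axis, for *Eed*, 10 raised genes and 7 lowered genes; filled circles are intestine and open triangles stomach, blue control and red *Eed* KO. *Zic1*, *Hoxb13* and *Vax2* lie at the bottom of the axis (0 CPM) in the 4 control libraries, and *Hoxa4* lies between 31.0 and 39.3 CPM in controls and between 9.21 and 10.7 CPM in *Eed* KO libraries.

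Both raised and lowered genes made up a larger share of the genes with a low level in control mesenchyme. Among tested genes with a mean over the 4 control libraries of 10 to 100 CPM, 34 of 7315 rose (0.465%) and 27 fell (0.369%). Among those of 1 to 10 CPM, 303 of 3437 rose (8.82%) and 47 fell (1.37%). Among those of 0.1 to 1 CPM, 427 of 2842 rose (15%) and 40 fell (1.41%). At 100 CPM and above, 2 of 2365 genes rose and 0 fell by edgeR. Genes under 0.1 CPM in controls passed the filter on low counts only through the *Eed* KO libraries and so had to differ, and their share, 180 of 259, is given as a description alone. A part of the genes of 0.1 to 1 CPM can have passed in the same way. The shares raised in the gene lists below can hold such genes, and are then descriptions alone.

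Regulators of other embryonic tissues rose in large numbers. Of 120 homeobox genes outside the Hox clusters, T-box, Zic and paired-box genes, 82 passed the filter, 63 rose and 0 fell by edgeR, with the fold threshold or at an adjusted p alone. In each of the 63, both *Eed* KO libraries were above both controls in both organs, as in 926 of all 946 raised genes (14.3% of all genes tested did so). These genes were called from the same libraries, which makes such separation likely, so it is not particular to the 63. The share raised was 47 of 63 for homeobox genes, 9 of 11 for T-box genes and 7 of 8 for Zic and paired-box genes, with medians of 3.20, 3.63 and 6.44 over the tested members. Of all genes tested 5.83% rose. In 53 of the 63 the control mean was under 1 CPM, so that many of them passed the filter through the *Eed* KO libraries. Of the 63, 1 was organ dependent, by a test of the difference between the organ effects at an adjusted p under 0.2 and a log2 difference above 1 (0.271% of all genes had a higher and 0.191% a lower effect in the stomach). A gene not called in this test was not thereby shown to respond alike in both organs. By their own organ effects, 35 of the 63 were called in the intestine and 56 in the stomach, where 2.38% and 4.84% of all genes tested rose.

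*Zic1*, a zinc finger gene of the neural tube and somites, had no count in the 4 control libraries and was at 2.35 and 5.05 CPM in the *Eed* KO intestine and 38.2 and 45.6 CPM in the *Eed* KO stomach. This is at least 1059-fold higher over the 4 libraries, computed against 3 counts in all control libraries together. *Vax2*, a homeobox gene of the ventral eye, had no count in controls and was at 3.67, 5.28, 9.79 and 9.76 CPM in *Eed* KO libraries, at least 330-fold higher. *Pax6*, a regulator of eye, brain and islet development, had 1 count in controls and 788 in *Eed* KO libraries, a ratio of 747 (95% counting interval 134 to 29535). *Tfap2b* and *En2*, known from the neural crest and the midbrain and hindbrain, were at least 153-fold and 79.0-fold higher. In each of these 5 genes every *Eed* KO library was above every control library, and the *Eed* KO stomach libraries were above the *Eed* KO intestine libraries.

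Genes with a low but countable control level gave fold changes that do not rest on a bound. *Tbx15*, a T-box gene of limb and head mesenchyme, was at 0.0281, 0.168, 0.0580 and 0.0765 CPM in controls and at 5.38, 9.47, 11.8 and 13.47 CPM in *Eed* KO libraries (log2 fold change 6.91 ± 0.39, edgeR adjusted p = 4.6e-05). *Foxd1*, a forkhead gene of kidney stroma, was at 0.253, 0.101, 0.145 and 0.0765 CPM in controls and at 6.68, 9.50, 11.7 and 18.0 CPM in *Eed* KO libraries (6.25 ± 0.38, edgeR adjusted p = 6.0e-05). *Alx1*, *Shox2*, *Tbr1*, *Tbx5* and *Tbx20*, regulators of craniofacial, limb, cortical and heart development, rose with log2 fold changes of 6.37, 6.01, 5.38, 6.48 and 3.90. *Pax9*, *Zic2* and *Evx1* also rose. Transcription factors of the gut mesenchyme itself were also raised in part. Of 26 such genes, 4 rose (15.4%, against 5.83% of all genes tested) and 0 fell by edgeR with the fold threshold. At an adjusted p alone 7 were higher and 2 lower, as were 8.72% and 2.87% of all genes tested. *Gata4*, which is known from the proximal gut, was at 1.01, 1.38, 14.5 and 15.5 CPM in controls and at 10.2, 20.5, 87.2 and 93.8 CPM in *Eed* KO libraries (3.02 ± 0.28, edgeR adjusted p = 4.8e-04), and so rose in both organs while the *Eed* KO intestine overlapped the control stomach. *Gata6*, *Gata5* and *Osr2* rose by 1.41, 1.88 and 2.84 on the log2 scale. *Prrx1*, a mesenchymal homeobox gene of limb and face, was at 0.899, 1.51, 22.6 and 33.1 CPM in controls and at 16.6, 19.8, 192 and 181 CPM in *Eed* KO libraries (3.19 ± 0.26, edgeR adjusted p = 2.5e-04). It rose in each organ, and its control difference between stomach and intestine stayed in the same direction.

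The promoters of raised and lowered genes are shown by example, because CpG content is the sequence feature by which Polycomb targets are known. Each sequence is the 250 bases before the RefSeq transcription start on GRCm38.p6, on the strand of the gene, with each CpG in capitals. Of the raised genes, *Zic1* (chr9:91365769-91366018, minus strand) held 27 CpGs, *Cdkn2a* (chr4:89294620-89294869, minus strand) held 40 and *Foxd1* (chr13:98353995-98354244, plus strand) held 12.
Zic1: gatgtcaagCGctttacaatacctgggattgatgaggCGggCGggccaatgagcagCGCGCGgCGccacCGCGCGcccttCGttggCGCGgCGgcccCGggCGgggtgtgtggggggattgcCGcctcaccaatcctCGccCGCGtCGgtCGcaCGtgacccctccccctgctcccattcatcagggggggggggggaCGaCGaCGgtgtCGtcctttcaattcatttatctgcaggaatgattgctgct
Cdkn2a: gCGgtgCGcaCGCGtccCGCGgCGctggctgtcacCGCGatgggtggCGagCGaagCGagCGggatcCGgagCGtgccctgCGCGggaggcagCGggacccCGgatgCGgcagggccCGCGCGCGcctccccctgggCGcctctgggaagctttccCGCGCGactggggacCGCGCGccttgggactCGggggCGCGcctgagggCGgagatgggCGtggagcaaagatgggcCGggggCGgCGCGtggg
Foxd1: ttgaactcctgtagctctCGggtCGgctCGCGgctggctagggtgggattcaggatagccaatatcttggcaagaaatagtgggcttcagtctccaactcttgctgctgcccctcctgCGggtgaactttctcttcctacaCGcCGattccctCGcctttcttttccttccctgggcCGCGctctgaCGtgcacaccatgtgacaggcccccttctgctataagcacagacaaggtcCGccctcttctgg
Of the lowered genes, *Hoxa5* (chr6:52204588-52204837, minus strand) held 28 CpGs, *Myo7a* (chr7:98119494-98119743, minus strand) held 6 and *Nmur2* (chr11:56040988-56041237, minus strand) held 5.
Hoxa5: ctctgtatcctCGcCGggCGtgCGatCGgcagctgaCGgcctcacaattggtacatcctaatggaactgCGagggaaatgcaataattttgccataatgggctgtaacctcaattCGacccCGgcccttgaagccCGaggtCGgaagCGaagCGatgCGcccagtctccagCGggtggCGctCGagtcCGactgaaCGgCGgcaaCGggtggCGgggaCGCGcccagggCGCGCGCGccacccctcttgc
Myo7a: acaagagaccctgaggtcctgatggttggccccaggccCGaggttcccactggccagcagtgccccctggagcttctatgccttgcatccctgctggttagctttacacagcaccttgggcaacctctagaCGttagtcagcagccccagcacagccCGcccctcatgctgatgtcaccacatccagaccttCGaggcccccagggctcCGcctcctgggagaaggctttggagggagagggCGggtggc
Nmur2: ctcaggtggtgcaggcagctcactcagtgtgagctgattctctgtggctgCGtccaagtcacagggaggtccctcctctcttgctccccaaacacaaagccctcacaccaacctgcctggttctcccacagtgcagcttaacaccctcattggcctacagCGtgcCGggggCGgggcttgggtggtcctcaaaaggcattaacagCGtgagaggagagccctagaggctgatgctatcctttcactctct
The promoter of *Hoxa5* was thus as rich in CpG as that of *Zic1*, while those of *Myo7a* and *Nmur2* had a CpG content of 0.24 of that given by their base composition.

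Over whole gene sets the comparison of CpG content is void, because a sequence was at hand for only 65.6% of raised, 60.5% of lowered and 69.5% of all tested genes. The shares that follow are therefore descriptions of the genes with a sequence alone, and the promoters shown as examples do not stand for their sets. Among genes with one, a CpG-rich promoter (300 bases, CpG observed over expected of at least 0.6, GC of at least 50%) was found for 52.7% of raised, 27.5% of lowered and 67.0% of all tested genes. Protein-coding genes under 1 CPM in controls had one in 51.2% when raised and in 28.7% when not called. Accessibility was compared from 1 ATAC-seq peak list for each organ and genotype, in which the replicates were pooled, so that no error between replicates can be given. Both control organs had a peak within 1000 bases of the start for 85.7% of raised, 64.6% of lowered and 87.4% of all tested genes. Among protein-coding genes under 1 CPM in controls these shares were 85.6% when raised and 69.2% when not called. A peak in both *Eed* KO lists and neither control list was found for 9 raised genes (0.951%) and for 91 of all tested genes (0.562%). Where all 4 lists had a peak, the fold enrichment in *Eed* KO mesenchyme was a median of 0.913 times that in control for raised genes in the intestine and 0.970 times in the stomach, against 0.952 and 0.99 for all tested genes. At the *Zic1* start the peak enrichment was 3.43 and 3.81 in the control intestine and stomach and 3.06 and 3.21 in the *Eed* KO organs, so a peak was listed there in control cells in which no *Zic1* transcript was counted. At the *Cdkn2a* start it was 5.79 and 4.93 in control and 6.14 and 5.77 in *Eed* KO.

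**Figure D2:**
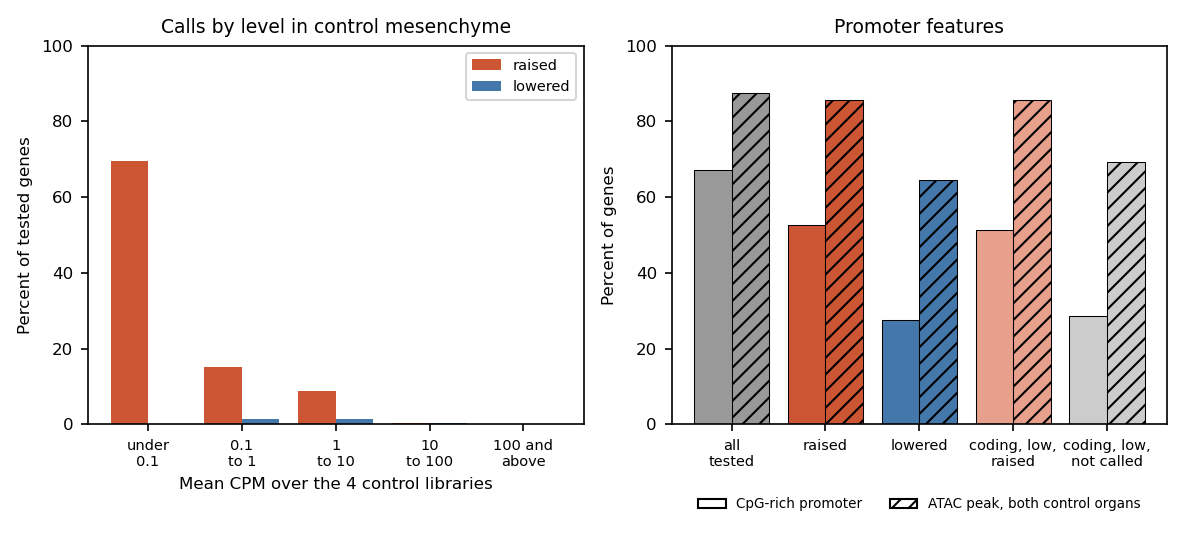
Left, percent of tested genes raised or lowered by mean control level in CPM; right, percent of genes with a CpG-rich promoter (plain bars, among genes with a sequence) and with an ATAC-seq peak in both control organs (hatched bars), where low stands for a control mean under 1 CPM. The raised share is 15% at 0.1 to 1 CPM, 8.82% at 1 to 10 CPM and 0.465% at 10 to 100 CPM.

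The Hox genes differed by their paralog group. Of 39 Hox genes tested, 8 rose and 6 fell, where 5.83% and 0.703% of all genes tested did. Of the 15 genes of paralog groups 1 to 5, 6 fell, and 11 had a negative fold change in both organs and an adjusted p under 0.05 by edgeR. The 3 of these genes in the HoxD cluster had a positive fold change in both organs and were not called, *Hoxd1* (1.14), *Hoxd3* (1.63) and *Hoxd4* (1.29), with edgeR adjusted p-values of 0.25, 0.079 and 0.099. All 16 genes of paralog groups 9 to 13, which pattern the posterior body, had a positive fold change in both organs, and 7 of them rose. Genes of 1 cluster, such as *Hoxa5* and *Hoxa9*, thus changed in opposite directions in the same libraries, relative to the median gene.

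*Hoxa4* was at 39.3, 32.6, 31.0 and 31.8 CPM in controls and at 9.21, 10.7, 10.3 and 9.57 CPM in *Eed* KO libraries (log2 fold change −1.76 ± 0.10, edgeR adjusted p = 4.6e-05). *Hoxa5*, which is needed for the patterning of stomach and lung mesenchyme, was at 42.4, 41.6, 80 and 66.8 CPM in controls and at 19, 19.3, 32.7 and 26.2 CPM in *Eed* KO libraries (−1.23 ± 0.10, edgeR adjusted p = 2.1e-04). For both genes all *Eed* KO libraries were below all control libraries. *Hoxa2*, *Hoxb1*, *Hoxb5* and *Hoxc5* fell by 1.19, 1.65, 1.04 and 1.16 on the log2 scale. Under scaling to the spike-in totals, all 6 had the opposite sign, from 0.34 for *Hoxb1* to 1.06 for *Hoxb5*, while the median gene moved by 2.12. The call of *Hoxb5* was lost without replicate 2 of the *Eed* KO intestine by falling just short of the fold threshold, and the annotated span of *Hoxc5* (chr15:102967443-103017429) covers other genes of the cluster, so its counts are uncertain.

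Of the posterior genes, *Hoxb13*, which is known from the tail and hindgut, had no count in controls and was at 6.49 and 8.84 CPM in the *Eed* KO intestine and 14.5 and 17.7 CPM in the *Eed* KO stomach, at least 551-fold higher. *Hoxc13* and *Hoxc12* had no control count either and were at least 64.8-fold and 41.1-fold higher. *Hoxb9* was at 0.759, 0.538, 4.41 and 3.31 CPM in controls and at 17.0, 17.2, 22.3 and 27.2 CPM in *Eed* KO libraries (3.5 ± 0.38, edgeR adjusted p = 9.8e-04). The size of the posterior effect was not shared between the organs. Of the 16 posterior genes 12 were organ dependent, with a median log2 fold change of 1.18 in the intestine and 9.81 in the stomach as fitted, where most of them had no control count. *Hoxa10* was at 27.6 and 24.2 CPM in the control intestine, 57.3 and 31.5 CPM in the *Eed* KO intestine, 0 and 0 in the control stomach and 40.6 and 36.9 CPM in the *Eed* KO stomach. The averaged effect for *Hoxa10* did not pass the test (log2 fold change 3.14 ± 1.31, edgeR adjusted p = 0.17), and the difference between the organs did (12.66 in the stomach minus the intestine, edgeR adjusted p = 0.0099).

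Groups 6 to 8 lay between these, with 1 of 8 raised (*Hoxd8*, 1.73 ± 0.31, edgeR adjusted p = 0.0089) and 4 organ dependent. *Hoxa9*, *Hoxc10*, *Hoxc11* and *Hoxd8* were no longer past the thresholds when same-numbered libraries were treated as 1 pool in limma voom, and *Hoxc10* lost its call on leaving out any single library other than replicate 1 of the *Eed* KO intestine (fitted log2 fold change 2.37 to 3.5). *Hoxa9* also lost it without replicate 1 or 2 of the control stomach (1.77 and 1.81), *Hoxc11* without either of these or replicate 2 of the control intestine (3.19, 3.15 and 3.82), and *Hoxc12* without replicate 2 of the control stomach, where a value of the fit depends on the prior count.

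**Figure D3:**
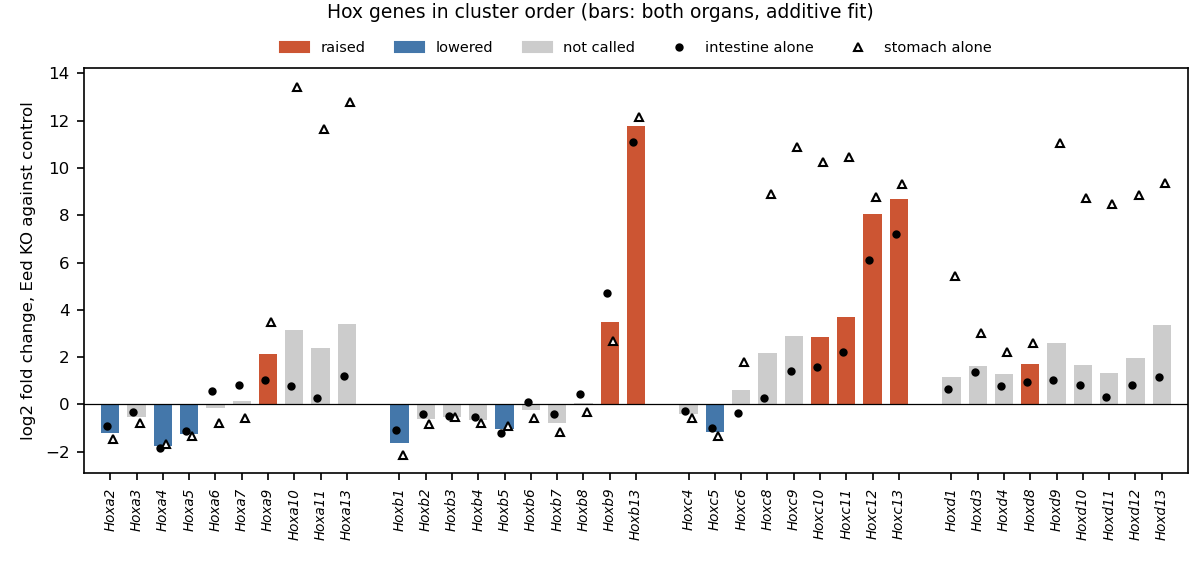
Log2 fold change of tested Hox genes in cluster order, *Eed* KO against control, with bars for the fit over both organs (red raised, blue lowered, grey not called), circles for the intestine and triangles for the stomach. Genes of groups 1 to 5 lie between −1.76 and 1.63 and those of groups 9 to 13 between 1.32 and 11.76; stomach values above 8 belong to genes with almost no control count and depend on the prior count of the fit.

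Most genes of cell cycle inhibitors rose, while 1 of the proliferation genes did. Of 7 cyclin-dependent kinase inhibitor genes, 4 rose (57.1%, against 5.83% of all genes tested) and 0 fell by edgeR, also at an adjusted p alone. *Cdkn2a* and *Cdkn2b* had control means under 0.1 CPM and passed the filter only through the *Eed* KO libraries, so this share is a description alone. *Cdkn2a*, which encodes p16INK4a and p19ARF and is a classical Polycomb target, was at 0.0281, 0, 0.0580 and 0 CPM in controls and at 10.3, 15.8, 36.4 and 39.9 CPM in *Eed* KO libraries. This was 3758 counts against 3, a ratio of 1187 (95% counting interval 406 to 5760, edgeR adjusted p = 5.5e-06). Its neighbour *Cdkn2b* (p15INK4b) was at 0, 0.0673, 0.0290 and 0.204 CPM in controls and at 1.16, 2.17, 3.11 and 4.28 CPM in *Eed* KO libraries (5.09 ± 0.53, edgeR adjusted p = 8.1e-04). *Cdkn2c* and *Cdkn1a*, which encode p18INK4c and p21, rose by 1.75 and 1.90 on the log2 scale. Every *Eed* KO library was above every control library for these 4 genes. Of 24 proliferation genes, 1 rose (4.17%), the cyclin gene *Ccnd1*. It was at 90.6, 56.6, 89.2 and 114 CPM in controls and at 214, 261, 202 and 208 CPM in *Eed* KO libraries (1.35 ± 0.19, edgeR adjusted p = 0.0035). The proliferation marker *Mki67*, which is named after its values were seen, was at 19.98, 63.3, 18.1 and 28.2 CPM in controls and at 35.96, 195, 28.1 and 85.4 CPM in *Eed* KO libraries, which overlapped (1.38 ± 0.58, edgeR adjusted p = 0.17). *Mki67* was past the fold threshold but not past the test, passed with the replicate block (1.19, edgeR adjusted p = 0.013), and had the opposite sign with the spike-in factor (−1.42 in edgeR). The other 22 were not past the fold threshold. Of these, 14 were lower at an adjusted p under 0.05 by edgeR, by 0.27 to 0.39 on the log2 scale, where 2.87% of all genes tested were lower by that rule. The median of the 24 was −0.33, against 0.00 for all genes.

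Signals to the epithelium changed in part. Of 13 tested Wnt ligand genes, 5 rose (38.5%, against 5.83% of all genes tested) and 0 fell by edgeR with the fold threshold, and at an adjusted p alone 1 more was lower. The other 6 of the 19 listed did not pass the filter, while *Wnt10b*, without a control count, passed it only through the *Eed* KO libraries. The share raised is therefore a description alone. The 19 summed to 457 to 558 CPM in controls and 450 to 503 CPM in *Eed* KO libraries, which overlapped. *Wnt11*, a ligand known mainly for non-canonical signalling, was at 6.69, 5.75, 14.2 and 11.5 CPM in controls and at 13.1, 8.79, 35.8 and 32.7 CPM in *Eed* KO libraries (1.13 ± 0.18, edgeR adjusted p = 0.0052), higher in each organ but with the *Eed* KO intestine overlapping the control stomach. *Wnt6*, *Wnt2* and *Wnt10b* rose as well, the last from no control count and at least 10.4-fold, but not without replicate 2 of the control stomach or without either *Eed* KO stomach library. *Wnt2* was at 0.0562, 0.202, 1.25 and 3.03 CPM in controls and at 1.74, 2.94, 6.49 and 7.79 CPM in *Eed* KO libraries (2.47 ± 0.51, edgeR adjusted p = 0.017), and it lost its call with embryo pools in both fits and without replicate 1 of the control stomach (log2 fold change 2.32, edgeR adjusted p = 0.059). Among 15 genes of secreted Wnt antagonists and R-spondins, 4 rose (26.7%) and 1 fell (6.67%, against 0.703% of all genes tested). *Sfrp2*, a secreted Wnt antagonist, was at 51.3, 75.3, 127 and 151 CPM in controls and at 98.3, 145, 337 and 393 CPM in *Eed* KO libraries (1.17 ± 0.18, edgeR adjusted p = 0.0044), and *Frzb*, *Dkk1* and *Rspo4* also rose, the first without a call on leaving out either control stomach library (1.02 and 0.96), the second without replicate 1 of the control or *Eed* KO stomach (2.08 and 1.90). *Rspo2*, an amplifier of Wnt signalling, fell by 1.02 on the log2 scale from 13.9, 12.8, 26.3 and 46.5 CPM to 7.76, 7.87, 11.5 and 19.2 CPM (edgeR adjusted p = 0.022). The call of *Rspo2* was lost with embryo pools, and without replicate 1 of the control intestine (−1.05), replicate 2 of the control stomach (−0.77) or replicate 1 of the *Eed* KO stomach (−0.84). Of 10 canonical Wnt target genes all had a positive fold change, with a median of 0.56, and 1 of them rose (10%), *Lef1*.

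Of 22 BMP, GDF and TGF-beta ligand genes, 3 rose (13.6%, against 5.83% of all genes tested) and 1 fell (4.55%, against 0.703%). The raised genes were *Lefty1*, *Lefty2* and, with a call lost in 2 of 8 fits without a single library, *Gdf7*. The lowered gene was *Bmp6*, at 7.5, 7.03, 17.7 and 16.2 CPM in controls and at 3.17, 4.54, 7.43 and 8.09 CPM in *Eed* KO libraries (−1.03 ± 0.13, edgeR adjusted p = 0.0020). *Chrdl1*, a secreted BMP antagonist and the member of 11 that fell, was at 29.9, 27.1, 93.2 and 71.5 CPM in controls and at 13.6, 16.7, 33.7 and 35.0 CPM in *Eed* KO libraries (−1.09 ± 0.12, edgeR adjusted p = 0.0011). In both genes the genotypes were apart within each organ, while the control intestine did not lie above the *Eed* KO stomach. Both calls lay near the fold threshold. That of *Chrdl1* was lost without replicate 1 of the control stomach (log2 fold change −0.97), and that of *Bmp6* without this library (−0.98) or without replicate 1 of the *Eed* KO intestine (−0.96) or stomach (−0.98). Of 14 FGF ligand genes 3 rose (*Fgf3*, *Fgf8* and *Fgf11*, 21.4%) and 0 fell by edgeR with the fold threshold. The call of *Fgf3* was lost with embryo pools in both fits, in DESeq2 and on leaving out any of 7 single libraries, and that of *Fgf11*, at the fold threshold, was lost with summed pools, the replicate block, DESeq2 size factors or no filter and without any of 4 single libraries. The shares raised were near the 5.83% of all genes tested for Hedgehog pathway genes (1 of 13, *Shh*, at 0.257 to 1.26 CPM in *Eed* KO libraries), for retinoic acid pathway genes (1 of 17, *Crabp1*, an intracellular retinoid-binding protein) and for neurotrophic and EGF-family ligand genes (1 of 19, *Edn1*), and of 24 axon guidance ligand genes 1 fell (*Ntn5*). *Ntn5* and *Sec1*, which also fell, overlap on chromosome 7, so their counts are uncertain.

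Of the differentiation genes of the mesenchyme itself, collagen genes changed and smooth muscle genes did not pass the test. None of 18 smooth muscle genes passed the thresholds by edgeR, and 1 was higher at an adjusted p alone. Of 12 mesenchymal marker genes only *Prrx1* rose, and 3 were lower at an adjusted p alone, by 0.31 to 0.48 on the log2 scale. By that rule 8.72% of all genes tested were higher and 2.87% lower. Of 42 collagen genes 7 rose (16.7%, against 5.83% of all genes tested) and 1 fell (2.38%, against 0.703%). *Col15a1*, a basement membrane collagen, was at 2.56, 3.47, 2.00 and 2.83 CPM in controls and at 13.6, 18.9, 11.1 and 20.5 CPM in *Eed* KO libraries (2.57 ± 0.24, edgeR adjusted p = 4.7e-04), and *Col8a2*, *Col4a6*, *Col7a1* and *Col2a1* were among the other 6. The call of *Col7a1* was lost without replicate 1 of the control intestine, replicate 1 of the control stomach or replicate 2 of the *Eed* KO stomach (1.49, 1.64 and 1.56), and that of *Col2a1* without either control intestine library or replicate 2 of either genotype of the stomach (1.60 to 1.96). Of 32 imprinted genes 1 rose (*Phlda2*, 3.1%), and of 9 oncofetal genes 1 rose (*Trim71*, 11.1%), against 5.83% of all genes tested. Neither of these calls held in the fits with embryo pools.

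Markers of other cell types moved with the genotype in several lists. The shares raised were 60% of endothelial, 42.9% of epithelial, 18.2% of enteric and 20% of leukocyte markers. They were 40% of pancreatic, 50% of skeletal muscle and 42.9% of cartilage markers. Of all genes tested 5.83% rose. Markers with a low control level can have passed the filter through the *Eed* KO libraries alone, so these shares are descriptions. Of 10 endothelial markers 6 rose and 0 fell by edgeR with the fold threshold, 7 were higher at an adjusted p alone, and the 10 summed to 23.2 to 28.0 CPM in controls and 37.3 to 65.0 CPM in *Eed* KO libraries. *Cdh5*, the endothelial cadherin, was at 1.43, 1.82, 0.493 and 0.433 CPM in controls and at 10.7, 11.9, 3.92 and 8.17 CPM in *Eed* KO libraries (3.18 ± 0.29, edgeR adjusted p = 4.6e-04). Of 14 epithelial markers 6 rose, among them *Sox2*, *Foxa1*, *Esrp1* and *Cdh1*, while the 15 listed in the counts summed to 67.3 to 120 CPM in controls and 78.6 to 153 CPM in *Eed* KO libraries, which overlapped. Of 11 markers of enteric neural crest and neurons 2 rose, *Stmn2* and *Erbb3*, and the 12 listed summed to 62.5 to 211 CPM in controls and 109 to 183 CPM in *Eed* KO libraries. *Sst* and *Nkx6-1* of 5 pancreatic markers, *Acta1*, *Pax3* and *Myod1* of 6 of skeletal muscle and *Comp*, *Col2a1* and *Acan* of 7 of cartilage also rose. Negative fold changes were found for 3 of the 6 skeletal muscle, 2 of the 7 cartilage and 1 of the 5 pancreatic markers. The listed skeletal muscle markers summed to 21.0 to 29.3 CPM in controls and 18.6 to 43.8 CPM in *Eed* KO libraries. Those of cartilage summed to 46.9 to 75.1 and 63.6 to 97.2 CPM, and those of the pancreas to 1.97 to 6.06 and 3.59 to 25.3 CPM. The genotypes overlapped in each of these sums. Among these markers the calls of *Cdh1* and *Erbb3* were lost without replicate 2 of the *Eed* KO stomach (1.57 and 1.07), and that of *Acan* without any of 4 single libraries (1.75 to 1.97). Of 5 tested leukocyte markers 1 rose (*Mrc1*), and of 7 erythroid markers 1 fell (*Alas2*, not called without any of 3 single libraries, −1.68 to −1.64). By edgeR 0 of 8 mesothelial markers and 0 of 5 markers of interstitial cells of Cajal passed the thresholds. At an adjusted p alone 3 mesothelial markers were lower and 1 higher, and 2 markers of interstitial cells of Cajal were lower and 1 higher. By that rule 8.72% of all genes tested were higher and 2.87% lower. In bulk libraries, more cells of a type and more RNA per cell cannot be told apart, and the part of other cells in these changes was not tested.

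**Figure D4:**
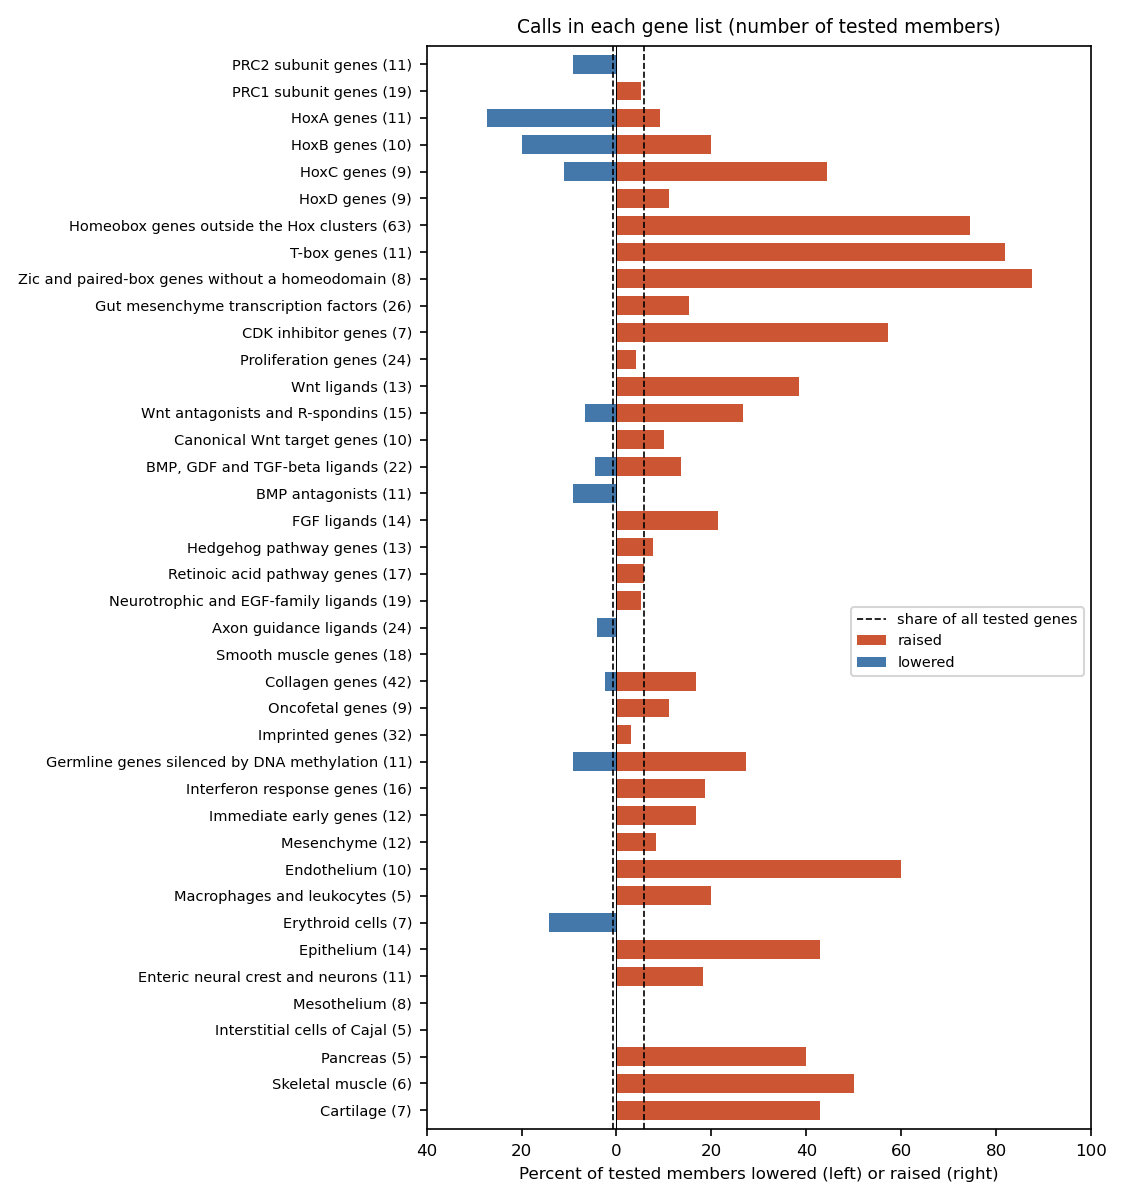
Percent of the tested members of each gene list that fell (left of 0, blue) or rose (right of 0, red) in the fit over both organs, with the number of tested members in brackets and dashed lines at 0.703% and 5.83%, the shares of all genes tested. Zic and paired-box (87.5%), T-box (81.8%) and homeobox genes (74.6%) have the longest bars, and several short lists rest on fewer than 10 members.

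The genes with the smallest p-values among well-expressed genes were not developmental regulators alone. *Wdfy1*, which encodes an endosomal phosphoinositide-binding protein, was at 3.65, 4.04, 3.88 and 4.03 CPM in controls and at 52.2, 54.2, 64.0 and 60.6 CPM in *Eed* KO libraries (3.88 ± 0.08, edgeR adjusted p = 2.1e-07). *Zc3hav1*, the zinc finger antiviral protein, *Hddc3* and *Bahd1*, a chromatin protein that binds H3K27me3, rose by 2.83, 1.63 and 1.44 on the log2 scale. The pseudogene *Rps13-ps1* was at 0.0843, 0, 0.0580 and 0 CPM in controls and at 31.2 to 44.7 CPM in *Eed* KO libraries, and its reads could also come from near-identical copies. Of 16 interferon response genes 3 rose (*Tap1*, *H2-K1* and *Rsad2*, 18.8% against 5.83% of all genes tested). However, the call of *Rsad2* was lost on leaving out any single library (log2 fold change 1.07 to 1.32) and that of *H2-K1* on leaving out replicate 2 of any group or replicate 1 of the *Eed* KO stomach (1.64 to 2.01). *Tap1*, a peptide transporter for MHC class I, was at 6.83, 6.63, 6.58 and 6.43 CPM in controls and at 14.5, 19.4, 18.2 and 21.1 CPM in *Eed* KO libraries (1.47 ± 0.12, edgeR adjusted p = 2.7e-04). Of 12 immediate early genes, which respond to handling of cells, 2 rose (16.7%) and 6 were higher at an adjusted p alone, as were 8.72% of all genes tested. The 2 were *Egr2* and *Egr3*, the second not without any 1 of the stomach libraries, at 1.32 to 1.60. Of 11 germline genes 3 rose (*Asz1*, *Sycp3* and *Tex11*, 27.3%) and 1 fell (*Sycp1*, 9.09% against 0.703% of all genes tested). In limma voom with embryo pools the calls of *Asz1* and *Sycp3* were lost (adjusted p = 0.076 and 0.15), that of *Tex11* was lost in summed pools (edgeR adjusted p = 0.10), and without a single library these 3 calls were lost in 2, 6 and 3 of 8 fits.

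The lowered genes were few, and a large part of those with the deepest loss were pseudogenes. Of the 114 lowered genes 75 were protein coding (65.8%, against 88.7% of raised and 85.0% of all tested genes) and 18 were pseudogenes (15.8%, against 2.22% and 3.89%). Of the 16 with a log2 fold change below −4, 9 were pseudogenes and 6 were protein coding. Such genes share sequence with their parent genes, and strain differences at them cannot be told apart from the genotype. *Eif3j2*, a gene of the eIF3j family, was at 6.18, 7.44, 6.06 and 7.73 CPM in controls and at 0.211, 0.20, 0.0805 and 0.137 CPM in *Eed* KO libraries (−5.43 ± 0.25, edgeR adjusted p = 1.3e-05). *Sycp1*, a gene of the meiotic synaptonemal complex, was at 1.01, 1.18, 1.16 and 1.25 CPM in controls and had 3 counts in all *Eed* KO libraries, a ratio of 56.3 (95% counting interval 18.9 to 276). *Nr1h5*, which fell by 3.23 on the log2 scale, is its neighbour (chr3:102939658-102964133, beside *Sycp1* at chr3:102818499-102936100). *Trim12a*, a TRIM family gene on chromosome 7, fell by 4.08. Chromosome 7, which holds *Eed*, had 10 lowered of 1203 tested genes (0.831%), against 0.703% of all genes tested. Within 10 Mb of *Eed*, 2 of 127 tested genes fell (1.57%), *Eed* itself and *Myo7a*. In the same interval 10 rose (7.87%, against 5.83% of all genes tested), among them *Wnt11* and *Hddc3*. Strain differences linked to the floxed *Eed* cannot be told apart from the genotype at these genes.

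*Myo7a*, an unconventional myosin known from hair cells, was at 16.2, 24.6, 11.1 and 15.7 CPM in controls and at 3.8, 6.11, 1.23 and 3.15 CPM in *Eed* KO libraries (−2.31 ± 0.31, edgeR adjusted p = 0.0026), with all *Eed* KO libraries below all controls. *C2cd4a*, *P2ry14*, *Cdh7*, *Col28a1* and *Nmur2*, a neuromedin U receptor gene, fell by 2.69, 2.11, 2.32, 2.24 and 3.03 on the log2 scale. In limma voom with embryo pools, *Cdh7*, *Col28a1* and *Nmur2* were no longer past the thresholds, and *Nmur2* also lost its call without replicate 1 of the control stomach (−2.85).

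The called genes had effects of 1 sign in both organs. None of the 946 raised or 114 lowered genes had effects of opposite sign in the organs, as a rule on the average effect makes likely. Fitted in the intestine alone, 386 genes rose (2.38%) and 37 fell (0.228%), and in the stomach alone 785 rose (4.84%) and 131 fell (0.808%). Of the raised genes, 295 were called in both organs, 48 in the intestine alone, 303 in the stomach alone and 300 in neither by itself. Of the lowered genes these numbers were 25, 8, 43 and 38. The stomach effect was the larger for 546 raised genes (57.7%) and for 76 lowered genes (66.7%), and the median log2 fold change of raised genes was 1.78 in the intestine and 1.96 in the stomach. Across genes, which are not independent replicates, Pearson's r between the effects in the 2 organs was 0.728 over all tested genes. Same-numbered *Eed* KO libraries of the 2 organs shared deviations from their group means (correlation 0.628), so this r also holds error shared between organs. Of 75 organ-dependent genes in all, 15 were called in the common response, 13 of them raised. In 35 of the 75 the organ effects had opposite signs. *Eed* KO replicate 2 was above replicate 1 for 66.2% of the raised genes in the intestine and 76.6% in the stomach, against 50.1% and 50.3% of all tested genes, and for 49.1% and 43.9% of the lowered genes.

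**Figure D5:**
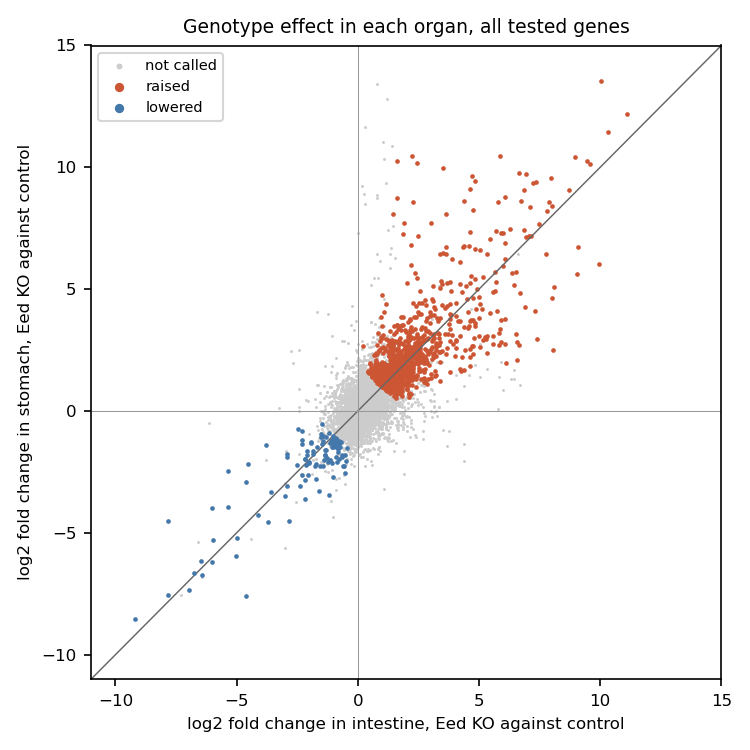
Log2 fold change of each tested gene in the stomach (vertical) against the intestine (horizontal), *Eed* KO against control, with the 946 raised genes in red, the 114 lowered genes in blue, all others in grey and a line of equal effects. All red points lie above and to the right of 0 and all blue points below and to the left of 0, with 57.7% of the raised genes above the line.

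*Barx1*, a homeobox gene of stomach mesenchyme, was not called in the common response, and its fold changes had opposite signs in the organs. It was at 0.534 and 1.48 CPM in the control intestine, 9.47 and 13.2 CPM in the *Eed* KO intestine, 627 and 557 CPM in the control stomach and 379 and 310 CPM in the *Eed* KO stomach. The averaged log2 fold change was 0.83 ± 0.79 (edgeR adjusted p = 0.55), with 3.53 in the intestine and −0.78 in the stomach, which was not called (edgeR adjusted p = 0.14). *Nkx2-3* and *Hand1*, regulators of intestinal mesenchyme, were not called in the common response either. *Nkx2-3* was at 153 and 180 CPM in the control intestine, 138 and 143 CPM in the *Eed* KO intestine, 2.06 and 0.204 CPM in the control stomach and 18.6 and 25.3 CPM in the *Eed* KO stomach.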

How the data were processed

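RNA-seq was performed on GFP+ cells sorted from E13.5 embryos. The authors trimmed reads (Trimmomatic 0.32), aligned them to GRCm38/mm10 (STAR 2.5.1b) and deposited raw counts per GENCODE vM4 gene (featureCounts 1.5.0), with 99 spike-in transcripts (92 ERCC, 7 SIRV) that were left out of the tests here. For ATAC-seq, the authors called peaks on pooled replicates (BWA 0.7.8, MACS2 2.1.2) and deposited fold enrichment over background and −log10 q-values, in 4 lists. Adult libraries, with 4 columns of counts, were not used.

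Counts were analysed in edgeR 4.0.16 (R 4.3.3, limma 3.58.1) with TMM scaling and filterByExpr, by a quasi-likelihood test on organ plus genotype with 5 residual degrees of freedom, and Benjamini-Hochberg adjustment over all tested genes. The biological coefficient of variation was 16.0%. The smallest two-sided exact permutation p within organs is 0.0556, so p-values come from this model. Organ dependence was the interaction in the 4-group fit. The study's methods used RUV-seq and DESeq2. The number of factors is not given in the sources used here, so 1 factor was an alternative, in edgeR and in DESeq2 1.42.0. Other alternatives were another scaling, no filter, a replicate block, embryo pools and leaving out libraries. The additive fit was run on simulated counts, in which an adjusted p under 0.05 recovered 42.3% of genes changed 2-fold and 77.3% of those changed 4-fold. The simulated libraries were drawn independently, without error shared within embryo pools, so they do not show the error rate under such sharing. Peaks and promoters were joined to gene starts in Python 3.11.15 (pandas 2.3.3, numpy 2.4.6, scipy 1.17.1), with positions and gene classes matched by symbol.

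Named genes were the 12 with the largest change per direction at 1 CPM or more whose genotypes did not overlap within organs, the 8 with the smallest p per direction at 10 CPM or more, PRC2 genes, up to 4 members per list and direction, genes the study names and 5 organ-dependent genes. The members and lists were chosen with earlier results of these data known. Some genes of the lists are not reported here by name.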

Additional observations from a re-analysis of the deposited data

Results flagged for a closer look

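Among the genes named here, 13 had an effect of *Eed* loss that differed between the organs. This was by the interaction term of the edgeR 4-group fit, each at an adjusted p under 0.2. They are a part of the 75 organ-dependent genes, so their make-up is not that of the whole set. The differences below are the log2 effect in the stomach minus that in the intestine. Those of genes without a control stomach count depend on the prior count of the fit.

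Of the 13 named genes, 10 were Hox genes, and 9 of the 10 had the larger effect in the stomach. Among all 39 Hox genes tested, 16 were organ dependent. *Hoxa9*, *Hoxc10*, *Hoxc11* and *Hoxd8*, which were called in the common response, differed by 2.47, 8.65, 8.23 and 1.65 (edgeR adjusted p = 0.069, 0.070, 0.073 and 0.034). *Hoxb9* differed by −2.02 (edgeR adjusted p = 0.073), with the larger effect in the intestine. *Hoxa10* differed by 12.66 (edgeR adjusted p = 0.0099) and *Hoxa13* by 11.57 (edgeR adjusted p = 0.0099). *Hoxa11* was at 13.3 and 12.9 CPM in the control intestine, 18.4 and 13.6 CPM in the *Eed* KO intestine, 0 and 0 in the control stomach and 9.66 and 13.1 CPM in the *Eed* KO stomach (difference 11.38, edgeR adjusted p = 0.0081). *Hoxc8* was at 62.9 and 59.1, 75.3 and 72.4, 0 and 0.0510, and 14.7 and 14.4 CPM in the same order (8.62, edgeR adjusted p = 5.2e-04), and *Hoxc9* at 6.69 and 5.82, 18.3 and 15.3, 0 and 0, and 6.95 and 6.34 CPM (9.47, edgeR adjusted p = 0.0081).

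The other 3 were not Hox genes. *Barx1* differed by −4.31 (edgeR adjusted p = 0.031) and *Nkx2-3* by 4.57 (edgeR adjusted p = 0.12). *Mecom*, a zinc finger gene, was at 0.197 and 0.202 CPM in the control intestine, 1.69 and 2.25 CPM in the *Eed* KO intestine, 38.8 and 52.5 CPM in the control stomach and 40.5 and 39.4 CPM in the *Eed* KO stomach (−3.48, edgeR adjusted p = 0.030). Both *Eed* KO libraries were above both controls in the organ with the low control level for all 3 genes, and in the other organ they were below the controls for *Barx1* and *Nkx2-3* and within their range for *Mecom*.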

How the results depend on the processing

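With 2 libraries per group, calls near a threshold moved with single libraries, and where a result changed the cause was not tested, except that leave-outs and fits of 1 organ or gene class use fewer libraries or genes. Against 946 raised and 114 lowered genes, DESeq2 called 1087 and 137, edgeR with DESeq2 size factors 937 and 114, no filter 1121 and 146, and the stomach alone 785 and 131. Direct scaling to the spike-ins gave 15962 and 25, 1 RUVg factor 198 and 74 in edgeR and 346 and 211 in DESeq2, embryo pools 535 and 60 in limma voom and 617 and 78 when summed, the intestine alone 386 and 37, and an adjusted p alone 1414 and 465. Chosen after seeing the data, protein-coding genes alone gave 839 and 75, and leaving out chromosome 7 gave 873 and 104. Leaving out a library or a pool gave 413 to 1182 raised and 49 to 128 lowered genes. The lowered count was 75 without replicate 1 of the control stomach and 74 without replicate 2 of the *Eed* KO stomach. Without both organs of control replicate 1 the counts were 413 and 49, of control replicate 2 491 and 60, and of *Eed* KO replicate 2 630 and 100.

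Organ-dependent genes numbered 44 with a higher and 31 with a lower effect in the stomach. DESeq2 gave 108 and 100, spike-in scaling 20 and 0 by edgeR, no filter 120 and 117, and the replicate block 104 and 83. Leaving out single libraries, which assumes that the library left alone in its group varies like the others, gave 17 to 57 and 7 to 45, with 25 and 7 without replicate 1 of the control intestine, 25 and 18 without its replicate 2, 17 and 10 without replicate 2 of the control stomach, and 20 and 12 without replicate 2 of the *Eed* KO stomach. A peak in all 4 lists was found for 85.6% of raised and 61.1% of lowered genes, for 93.7% and 69.0% with a window of 5000 bases, and for 70.0% and 44.2% at a −log10 q of at least 5. CpG-rich promoters made up 52.7% of raised and 27.5% of lowered genes with a sequence, and 28.7% and 13% at the stricter threshold.

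The replicate block called 1029 raised and 137 lowered genes, and of the 116 called genes under the rule for named genes it ended the call of *Fgf11* alone. Same-numbered libraries deviated from their group means with a correlation of 0.628 between the *Eed* KO organs, 0.265 between the control organs and 0.0470 to 0.151 across genotypes, so the numbers were not taken to pair the genotypes.

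*Eed* ranged from −2.32 to −1.85 on leaving out libraries or pools, and was at −0.045 under spike-in scaling, where it lost its call. Under that scaling the sign turned for *Sec1* (0.19), *Hoxa4* (0.37), *Hoxa5* (0.87), *Hoxb5* (1.06), *Hoxc5* (0.95), *Chrdl1* (1.08), *Hoxa2* (0.93), *Bmp6* (1.16), *Ezh2* (1.96), *Suz12* (1.98), *Hoxb1* (0.34), *Rspo2* (1.17), *Ntn5* (0.57) and *Alas2* (0.093). With limma voom and pools it turned for *Hoxa11* (−0.043), *Barx1* (−0.86), *Nkx2-3* (−0.24), *Mecom* (−0.35) and *Hoxc8* (−0.13), with summed pools for *Barx1* (−0.81) and *Mecom* (−0.23), in the stomach alone for *Barx1* (−0.78) and *Mecom* (−0.19) and in the intestine alone for *Nkx2-3* (−0.25). With 1 RUVg factor it turned for *Mki67* (−1.42 in edgeR and −1.45 in DESeq2).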
